A study of Homo sapiens with 28 samples.

Results

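The H3K27ac maps of senescent fibroblasts after p300/CBP knockdown comprise 4 of the 28 libraries in the series: 2 made after small interfering RNA against p300 and CBP, titled Sen-sip300/CBP (replicates 1 and 2), and 2 whose titles name them as the Sen comparison for that knockdown, made with control siRNA (siCtrl; replicates 1 and 2) and called matched Sen below. They were taken by title, with no use of measured values. All 4 come from IMR-90 ER:Ras cells, an established human fetal lung fibroblast line carrying an oncogenic Ras fused to an oestrogen-receptor domain, which 4-hydroxytamoxifen switches on. All are tagged as exposed to 100 nM of this drug for 6 days. The matched Sen cells are senescent too by their title, and senescence itself was not measured here. As far as the labels go, every library differs from its comparison by the siRNA alone. H3K27ac was mapped by CUT&RUN, in which an antibody directs a nuclease to cut out the bound chromatin for sequencing. What was deposited for each library is 1 list of called peaks in hg19 coordinates. For scale, 4 much longer H3K27ac lists of siCtrl Sen cells (Sen replicates 1 to 4) and 2 lists titled Pro, for proliferating cells, were used as fixed annotation. The Pro libraries carry the same drug and cell type tags as the Sen ones, and their state is taken here from the title. Whether replicates were separate cultures is not stated in the labels, so a p-value here is set against a spread between libraries that may be technical. The levels of p300 and CBP themselves were not measured in these files, and genes near the peaks were not analysed here, so regions are named by position and the fibroblast identity of the cells is taken from the labels.

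p300 and CBP are closely related histone acetyltransferases, recruited by transcription factors to enhancers and promoters, where they place the acetyl mark on lysine 27 of histone H3. H3K27ac marks active regulatory DNA, and its pattern at distal enhancers is largely specific to a cell's state. Oncogene-induced senescence is a lasting growth arrest in which fibroblasts acquire new enhancers, many of them bound by AP-1. c-JUN is an AP-1 subunit and its phosphorylated form, p-c-JUN, is the active one. FOXF1 is a forkhead transcription factor of lung mesenchyme. The p-c-JUN and FOXF1 CUT&RUN libraries of Sen cells in the same series serve here as a second readout.

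All 4 lists were short. The sip300/CBP lists held 4186 and 1549 peaks on chromosomes 1 to 22 and X, against 8234 and 2046 in the matched Sen lists. The longer Sen lists held 84864, 60862, 48859 and 26694. The order within the experiment therefore mixed the groups: sip300/CBP replicate 1 had more peaks than either replicate 2 list, and matched Sen replicate 1 the most. The sip300/CBP lists averaged 2867.5 ± 1864.6 peaks and the matched Sen lists 5140 ± 4375.6 (SD, n = 2 each), a log2 difference of -0.69 ± 1.23 (SE). An exact two-sided permutation test gave p = 0.667, where 2 against 2 libraries cannot go below 0.333. A difference in peak number was thus not detectable with these libraries, and its sign turned with the threshold. With a −log10 q of at least 5, the lists kept 418 and 202 peaks after sip300/CBP, against 342 and 102 in matched Sen, a log2 difference of 0.64.

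Peaks in the 4 lists were narrower than those in the longer lists. Their median width was 298 and 279 bp after sip300/CBP and 316 and 290 bp in matched Sen. In the longer Sen lists the medians were 527, 432, 421 and 391 bp. The covered length was 1.46 and 0.516 Mb after sip300/CBP, against 2.93 and 0.66 Mb in matched Sen and between 12.6 and 55.8 Mb in the longer lists. The median fold enrichment that the authors' peak caller assigned was 3.85 and 4.3 after sip300/CBP, and 3.71 and 4.04 in matched Sen. The fold value and p-value of each peak together give the background against which it was scored. A low quantile of these backgrounds over a list's peaks, close to the lowest, was taken as its estimate. It was 7.07 and 5.14 fragments per kb after sip300/CBP, and 6.81 and 5.7 fragments per kb in matched Sen. These estimates averaged 6.11 after sip300/CBP and 6.25 in matched Sen. In the longer lists, where only a part of the peaks was used, the estimate was 8.1, 6.59, 4.15 and 3.03, in the order of their lengths. Both replicate 1 lists of this experiment also had a higher estimate and more peaks than both replicate 2 lists. The part of depth in list length was not tested. In CUT&RUN of a cell population, fewer marked cells and less mark per cell cannot be told apart.

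Many of the strongest peaks of the sip300/CBP lists were at places that a different antibody also gave. FOXF1 libraries made after FOXF1/2 knockdown, which is aimed at that antibody's target, provided a mark of such places. A peak overlapping a peak in either of those lists is called antibody-shared. The FOXF1 left in those cells was not measured here, so an antibody-shared place may still be a FOXF1 site. Antibody-shared peaks numbered 80 and 83 after sip300/CBP, against 41 and 41 in matched Sen. As shares of the lists these were 1.91% and 5.36% after sip300/CBP, against 0.498% and 2% in matched Sen. Most of them sat in the strongest decile of each list, where they made up 15.8% and 45.2% of peaks after sip300/CBP, and 4% and 17.1% in matched Sen. sip300/CBP replicate 2 stood above the other libraries in this measure. The best −log10 q in a list, at an antibody-shared place, was 2110 and 1830 after sip300/CBP, and 613 and 488 in matched Sen. The fold enrichment there was close, 20.1 and 20.9 after sip300/CBP and 20.1 and 19.1 in matched Sen. The highest fold in a list was 42.9 and 43.9 after sip300/CBP, and 34.1 and 32.2 in matched Sen. These values were scored within each library. Shares with antibody-shared peaks left out are given beside the main comparisons below.

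**Figure D1:**
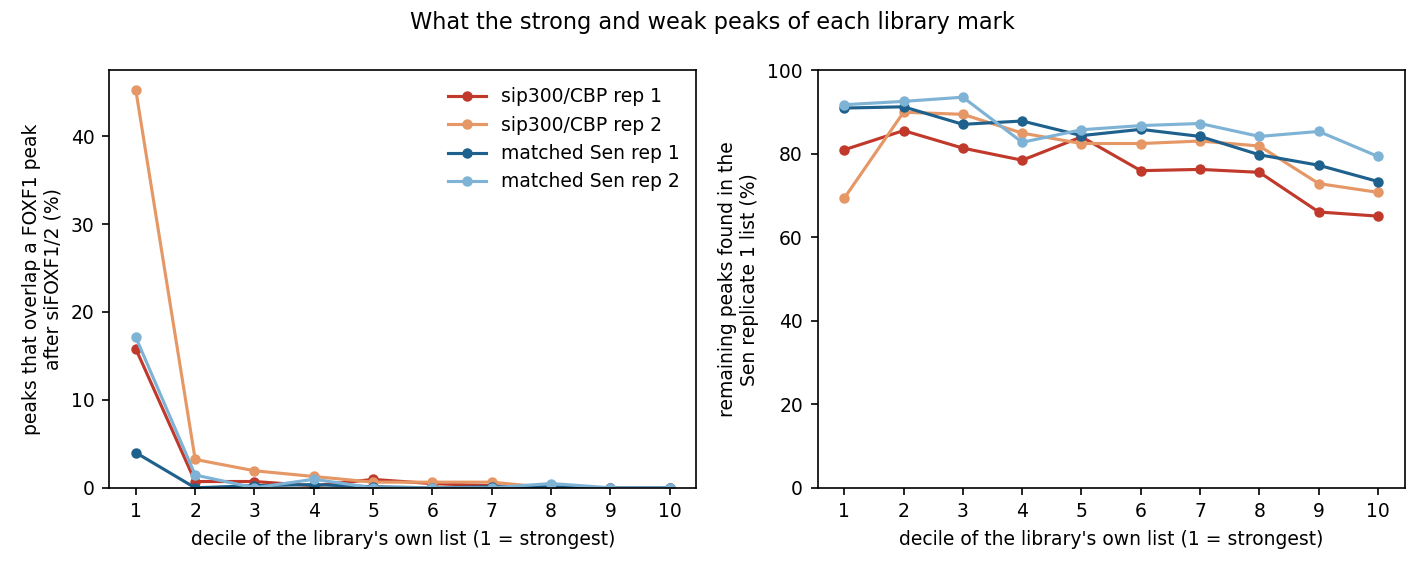
Each library's peaks were divided into deciles by −log10 q (x axis, 1 = strongest). The left panel gives the percentage of peaks that are antibody-shared, and the right panel the percentage of the remaining peaks that overlap a peak of the Sen replicate 1 list. Lines are single libraries, sip300/CBP in red and orange and matched Sen in blue. Most antibody-shared peaks lie in the first decile, and there 81% and 69.4% of the remaining sip300/CBP peaks are found in Sen replicate 1, against 91% and 91.8% of the remaining matched Sen peaks.

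Most peaks of the sip300/CBP lists were at places that the longest of the Sen lists also marked, though a smaller part than in matched Sen. Few were shared with the short matched Sen lists: 17.8% and 21.4% of sip300/CBP peaks were in matched Sen replicate 1, and 6.26% and 8.46% in matched Sen replicate 2. Lists of one group also shared few peaks. Of matched Sen replicate 1, 6.83% of peaks were in replicate 2, and 27.6% the other way. Of sip300/CBP replicate 1, 11.7% were in replicate 2, and 32% the other way. Sen replicate 1, the longest list, held 76.2% and 79.1% of the sip300/CBP peaks, against 84.1% and 86.6% of the matched Sen peaks. The difference was -7.67 ± 1.9 percentage points (SE). Sen replicate 2 held 62.9% and 66.5% of the sip300/CBP peaks and 71.8% and 75.5% of the matched Sen peaks. For both of these lists the groups did not overlap, and the exact two-sided permutation test gave p = 0.333, the smallest that the design allows. Against the shorter Sen replicates 3 and 4 the groups overlapped: 51.5% and 57.8% of sip300/CBP peaks and 56.7% and 63.5% of matched Sen peaks were in replicate 3, and 37.8% and 44.7% of sip300/CBP peaks and 37.9% and 46.5% of matched Sen peaks in replicate 4. At least 3 of the 4 longer lists held 49.2% and 55.3% of sip300/CBP peaks, against 54.9% and 61.7% of matched Sen peaks. This difference of -6.06 ± 4.58 points was within the spread between replicates (exact two-sided permutation p = 0.667).

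The lists differ in length, and list length bears on such shares. When each list was limited to its 1549 best peaks by −log10 q, the groups separated for each of the 4 longer lists. This limit keeps all of sip300/CBP replicate 2 but only the strongest of the 8234 peaks of matched Sen replicate 1. In the latter list, presence in Sen replicate 1 fell from 90.3% in the strongest decile to 73.4% in the weakest. The limit therefore makes the lists equal in number and not in peak strength. The share in at least 3 longer Sen lists was then 55.3% and 55.3% after sip300/CBP, against 67.3% and 64.2% in matched Sen, a difference of -10.5 ± 1.58 points (exact two-sided permutation p = 0.333). Without antibody-shared peaks it was 56% and 56.1% after sip300/CBP and 67.3% and 64.1% in matched Sen. The share found in none of the 4 was 13.8% and 15.6% after sip300/CBP, against 5.49% and 8.13% in matched Sen. For scale, Sen replicate 1 holds 99.9% of the 1549 best peaks of Sen replicate 2. Among peaks with a −log10 q of at least 5, the share in at least 3 lists was 55.3% and 52.5% after sip300/CBP and 75.7% and 73.5% in matched Sen. Antibody-shared peaks are 15.8% and 35.6% of these strong peaks after sip300/CBP, and 8.48% and 33.3% in matched Sen.

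**Figure D2:**
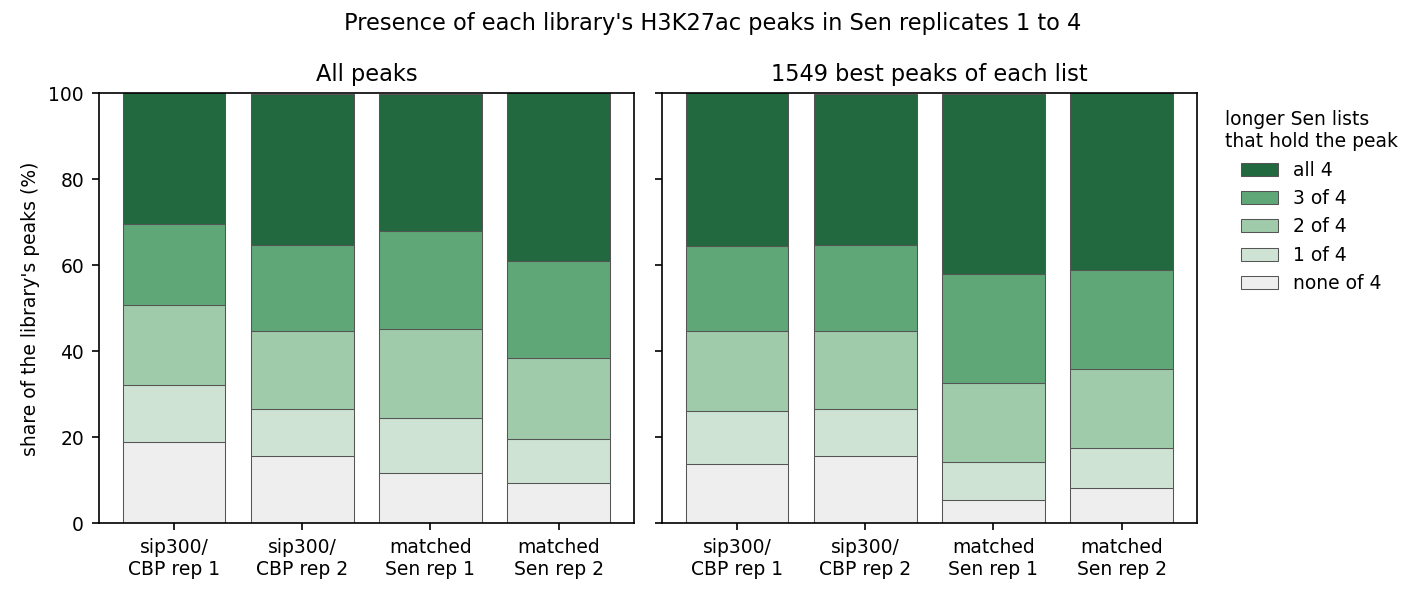
Share of each library's peaks (y axis, percent) by the number of longer Sen lists that hold a peak there, for the lists as deposited and for the 1549 best peaks of each. Bars are single libraries. In the right panel the top segment and the one under it add to 55.3% in both sip300/CBP libraries, below 67.3% and 64.2% in matched Sen.

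Seen from the longer list, both groups caught mostly its strongest peaks. In the strongest decile of Sen replicate 1, 13.4% and 5.8% of peaks were found after sip300/CBP, against 28.3% and 8.7% in matched Sen. In the weakest decile these shares were 0.625% and 0.141% after sip300/CBP, and 1.3% and 0.236% in matched Sen. The groups overlapped in the strongest decile. With the 1549 best peaks of each list, the strongest decile of Sen replicate 1 separated the groups, at 5.84% and 5.8% after sip300/CBP and 7.67% and 6.9% in matched Sen. The strongest decile of Sen replicate 2 did so too, at 6.41% and 5.98% after sip300/CBP and 8.25% and 7.15% in matched Sen. In Sen replicates 3 and 4 it did not: the values were 6.92% and 6.63% after sip300/CBP and 7.04% and 6.84% in matched Sen for replicate 3, and 8.46% and 7.94% after sip300/CBP and 8.2% and 7.94% in matched Sen for replicate 4. In the weakest decile of Sen replicate 1 the values were 0.2% and 0.141% after sip300/CBP and 0.177% and 0.177% in matched Sen, which overlap.

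**Figure D3:**
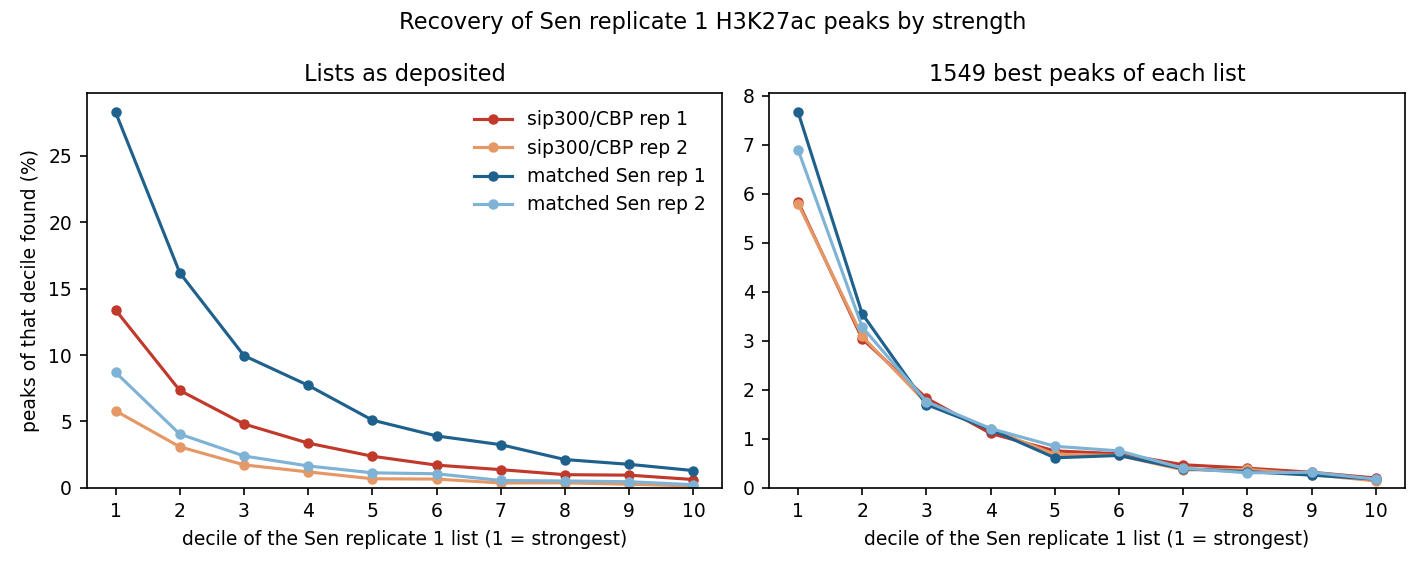
Share of the Sen replicate 1 peaks found in each library (y axis, percent), by decile of that list's −log10 q (x axis, 1 = strongest). The left panel uses the lists as deposited and the right panel the 1549 best peaks of each. On the right, the sip300/CBP libraries lie together at 5.84% and 5.8% in the first decile, under the matched Sen libraries at 7.67% and 6.9%, and the lines meet in the weaker deciles.

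Merging peaks that overlapped by 1 bp or more across the 4 libraries gave 13884 regions. Both sip300/CBP libraries and neither matched Sen library held 280 regions (gained, 2.02% of all regions). Both matched Sen libraries and neither sip300/CBP library held 374 (lost, 2.69%). All 4 held 68. The words gained and lost stand for the presence of a called peak and not for a tested change in signal. Regions held by 1 library of each group numbered between 27 and 455 in the 4 possible pairs, so the gained and lost counts fell inside the range that single libraries of unequal length gave. With 1549 peaks a list, these mixed pairs gave 45 to 60 regions, against 221 gained and 107 lost, so libraries of one group then shared more regions than libraries of different groups did. The 1549 best sip300/CBP peaks overlapped each other at 19.7% and 20.2%, the matched Sen ones at 11.3% and 11.5%, and those of different groups at 7.3% to 9.1%. Leaving out the antibody-shared peaks left 190 gained and 107 lost regions at equal length.

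Lost regions were, as a group, H3K27ac sites of the longer Sen lists, and most were marked in Pro cells too. Both Pro lists and both Sen replicates 1 and 2 held 82.4% (308) of the lost and 64.6% (181) of the gained regions. They held 83.2% of the regions found in exactly 1 library of each group and 56.3% of all regions. At least 3 longer Sen lists held 80.2% of the lost regions (300) and none of the lists held 0.802% (3). Of the gained regions, 56.8% (159) were in at least 3 longer lists and 10.4% (29) in none. Over all regions these shares were 51.4% and 15.1%. Among regions found in exactly 1 library of each group, 78.1% were in at least 3 longer lists and 2.92% in none, close to the lost regions. Of the gained regions, 29 were antibody-shared, and of the lost regions none. Without them 61.8% of gained regions were in at least 3 longer lists and 9.56% in none.

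Among the 10 lost regions with the best ranks, all were in at least 3 longer Sen lists, 7 in all 4, and 8 under p-c-JUN peaks of both Sen p-c-JUN libraries. None was antibody-shared. The first lay on chromosome 4 at 85907106 to 85908168, with no peak after sip300/CBP and a fold enrichment of 6.56 and 7.34 in matched Sen. It was in 3 longer Sen lists and in neither Pro list. The second, on chromosome 12 at 29541205 to 29542082, had folds of 6.87 and 6.25 in matched Sen, and was in Sen replicates 1, 2 and 4 and in neither Pro list. A region on chromosome 1 at 78675275 to 78676789, in both Pro lists, had folds of 4.8 and 5.53 in matched Sen. Its folds were 8.28, 7.41, 7.86 and 6.47 in Sen replicates 1 to 4. At these places neither sip300/CBP library gave a peak that passed the caller's threshold. A region on chromosome 4 at 170405897 to 170406763 had folds of 4.76 and 4.92 in matched Sen and lay under both p-c-JUN and FOXF1 peaks of Sen cells. It was in all 4 longer Sen lists and in both Pro lists, so it was not particular to the senescent state.

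The 10 best-ranked gained regions differed from the 10 best-ranked lost ones. Of these, 8 were antibody-shared and none was in all 4 longer Sen lists. Close to a peak-free stretch lay 7, meaning within 2 Mb of the longest interval on a chromosome with no peak in any of the 28 lists. Over all 280 gained regions, 10.4% were antibody-shared and 14.6% close to such a stretch, against 0.655% and 2.56% of all regions. The top 10 thus do not stand for the whole gained class. On chromosome 2 at 92280846 to 92281517 the fold was 11 and 12.5 after sip300/CBP, and on chromosome 9 at 69710794 to 69711308 it was 12.4 and 16.3. Neither matched Sen list had a peak at these places. Gained regions outside such places, picked after their values were seen, had lower folds. On chromosome 12 at 8088036 to 8088608 the fold was 5.33 and 4.95 after sip300/CBP, and 3.7, 5.31, 3.32 and 4.44 in Sen replicates 1 to 4. On chromosome 4 at 187841253 to 187842599 it was 4.09 and 4.43 after sip300/CBP, and 4.8, 3.49, 4.81 and 4.81 in the longer Sen lists. Both of these are thus sites that all 4 longer Sen lists held and the matched Sen lists did not. Another, on chromosome 1 at 145114822 to 145115511, was in 2 longer Sen lists. Among the 10 best-ranked gained regions that were not antibody-shared, 2 were in all 4 longer Sen lists and 4 in none. Close to a peak-free stretch lay 7 of these 10.

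Of the 68 regions in all 4 libraries, 29 were antibody-shared, and the 10 with the best ranks were all of this kind and all close to a peak-free stretch. The best in every library lay on chromosome 1 at 121484085 to 121485425, with a fold of 20.1 and 20.9 after sip300/CBP and 20.1 and 19.1 in matched Sen. Of the other 39, 34 (87.2%) were in at least 3 longer Sen lists. Near a peak-free stretch lay 4 of them (10.3%), against 2.56% of all regions. Examples from these were chosen after their values were seen. On chromosome 17 at 41465788 to 41466852 the fold was 6.45 and 6.54 after sip300/CBP, against 6.06 and 7.4 in matched Sen. This region ranked 7, 7, 7 and 13 in the longer Sen lists, with folds of 11.4, 10, 11.7 and 13. On chromosome 1 at 17229838 to 17231320 the fold was 4.96 and 3.98 after sip300/CBP and 7.4 and 6.29 in matched Sen. The fold ranges of the groups overlapped at the chromosome 17 region and did not at the chromosome 1 region, and fold values were scored within each library.

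H3K27ac sites that Sen cells have and Pro cells lack were the class of the 3 examined in which the groups stood farthest apart. A site was called acquired in senescence when both Sen replicates 1 and 2 and neither Pro library held it, given up when both Pro and neither of those Sen libraries did, and held when all 4 did. Of 5988 acquired regions, 0.651% and 0.184% had a peak after sip300/CBP (39 and 11 regions), against 4.99% and 1.04% in matched Sen (299 and 62). Of 34380 held regions, 7.9% and 3.08% had one after sip300/CBP, against 15.8% and 4.26% in matched Sen. Of 12698 given-up regions, 0.819% and 0.276% had one after sip300/CBP, against 0.977% and 0.244% in matched Sen. The mean sip300/CBP share was 0.139 times the mean matched Sen share for acquired regions, 0.546 times for held regions and 0.897 times for given-up regions. For acquired regions neither sip300/CBP library reached either matched Sen library (exact two-sided permutation p = 0.333, the smallest allowed). For held and given-up regions the groups overlapped (exact two-sided permutation p = 0.667 and 1). Within each group the longer list held more acquired regions. Across groups, sip300/CBP replicate 1, with 4186 peaks, held 39 of them, and matched Sen replicate 2, with 2046 peaks, held 62.

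**Figure D4:**
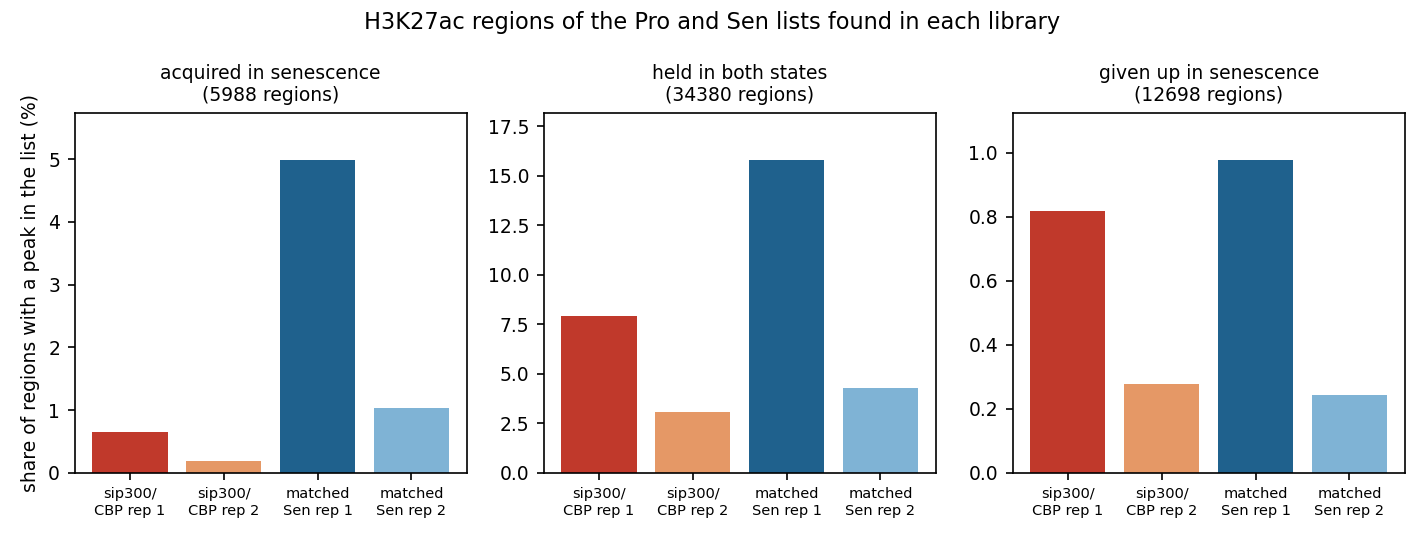
Share of regions with a peak in each library (y axis, percent; scales differ between panels) for H3K27ac regions acquired, held or given up between the Pro and Sen lists. Bars are single libraries, sip300/CBP in red and orange and matched Sen in blue. Both sip300/CBP bars are lower than both matched Sen bars in the acquired panel (0.651% and 0.184%, against 4.99% and 1.04%), and the groups interleave in the other panels.

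At equal list length the ratio of the means was 0.286 for acquired, 0.924 for held and 1.89 for given-up regions. Acquired regions were found at 0.251% and 0.184% after sip300/CBP (15 and 11 regions), against 0.768% and 0.752% in matched Sen (46 and 45). Held regions were found at 3.18% and 3.08% after sip300/CBP and 3.44% and 3.33% in matched Sen. Given-up regions turned the other way, with 0.26% and 0.276% after sip300/CBP (33 and 35 regions), against 0.142% and 0.142% in matched Sen (18 and 18). In none of these comparisons did the groups overlap, each with exact two-sided permutation p = 0.333.

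Counted over each library's own peaks, 1.24% and 1.36% of sip300/CBP peaks were at acquired sites, against 4.6% and 4.06% of matched Sen peaks, a difference of -3.03 ± 0.279 percentage points. Peaks at given-up sites made up 3.94% and 3.36% after sip300/CBP, against 2% and 1.76% in matched Sen, a difference of 1.77 ± 0.317 points. Neither pair of groups overlapped (exact two-sided permutation p = 0.333 each). The share at held sites was 56.5% and 60.6% after sip300/CBP and 59.1% and 63.1% in matched Sen, which overlap. Among the 1549 best peaks, acquired sites made up 0.839% and 1.36% after sip300/CBP, against 3.87% and 3.81% in matched Sen. For scale, acquired sites were 0.129%, 1.23%, 0.775% and 1.29% of the 1549 best peaks of Sen replicates 1 to 4. Of all peaks in those longer lists, 7.45%, 11.8%, 5% and 4.35% were at acquired sites. Over all peaks, 76.4% and 78.9% of sip300/CBP peaks and 76.1% and 78.9% of matched Sen peaks were in Pro replicate 1, and these groups overlapped. Among the 1549 best the shares were 80.7% and 78.9% after sip300/CBP and 84.3% and 81% in matched Sen. With a −log10 q of at least 5 they were 77.3% and 69.8% after sip300/CBP and 86.3% and 85.3% in matched Sen, so in strong peaks presence in a Pro list was lower after sip300/CBP too. Both separations depended on which Sen lists defined the classes. With Sen replicates 3 and 4 in place of 1 and 2, the share of peaks at acquired sites was 0.693% and 1.48% after sip300/CBP and 1.47% and 1.42% in matched Sen, and the groups overlapped. Without antibody-shared peaks that definition gave 0.414% and 0.546% after sip300/CBP, against 1.44% and 1.3% in matched Sen, which did not overlap. Given-up sites defined with Sen replicates 3 and 4 held 21.7% and 19.6% of sip300/CBP peaks and 19.7% and 15.7% of matched Sen peaks, which overlap (exact two-sided permutation p = 0.667). Of the lost regions, 4.28% (16) were acquired sites and 0.267% (1) given-up sites. Of the gained regions, 1.07% (3) were acquired and 2.14% (6) given up. Over all regions 3.62% were acquired and 2.88% given up, so the lost regions lay near the overall share for acquired sites.

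p-c-JUN sites of Sen cells made up a smaller share of the peaks after p300/CBP knockdown. A region was counted as a p-c-JUN site when both Sen p-c-JUN libraries held a peak there. The share of peaks at such sites was 29.6% and 35.2% after sip300/CBP, against 42.2% and 43.5% in matched Sen, a difference of -10.4 ± 2.86 percentage points. The groups did not overlap (exact two-sided permutation p = 0.333, the smallest allowed). Without antibody-shared peaks the shares were 28.7% and 33.1% after sip300/CBP and 42% and 42.9% in matched Sen. The gap stood also within sites of one kind. Among peaks present in Sen replicate 1 the share was 35.8% and 40.1% after sip300/CBP and 47.4% and 47.2% in matched Sen. Among peaks at held sites, which leaves the acquired ones out, it was 40.9% and 44.9% after sip300/CBP and 53.1% and 51.9% in matched Sen. In the 1549 best peaks it was 29.8% and 35.2% after sip300/CBP, against 49.9% and 44.1% in matched Sen. In the longer Sen lists 43% to 46.2% of all peaks, and 61.4% to 81.1% of the 1549 best, lay at p-c-JUN sites. Of lost regions 59.1% (221) were p-c-JUN sites, and of gained regions 36.1%, or 30.3% without the antibody-shared ones. Over all regions the share was 38.2%, and over regions in 1 library of each group 44.3%. It was 52% over regions in both matched Sen libraries and 1 sip300/CBP library. Regions in all 4 libraries had 60.3%, or 48.7% without the antibody-shared ones. A share above that of all regions was thus not particular to the lost regions.

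FOXF1 sites, counted in the same way from the FOXF1 libraries of Sen cells, did not separate the groups over all peaks. Their share was 8.34% and 14.7% after sip300/CBP and 11.2% and 12.2% in matched Sen (exact two-sided permutation p = 1). In the 1549 best peaks without antibody-shared ones, the shares were 7.38% and 11.7% after sip300/CBP and 13.5% and 12.1% in matched Sen, which do not overlap (exact two-sided permutation p = 0.333). Of lost regions 16.3% (61) and of gained regions 16.4% (46) lay at FOXF1 sites, against 10.3% of all regions. Without antibody-shared regions 10.4% (26) of the gained ones did. The antibody-shared places bear on this count, since 82.8% of the antibody-shared regions held by all 4 libraries were FOXF1 sites by this definition.

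Peaks near the longest peak-free stretch of a chromosome were a larger part of the sip300/CBP lists. Within 2 Mb of such a stretch lay 4.54% and 8.13% of sip300/CBP peaks, against 1.98% and 4.06% of matched Sen peaks and 1.48% to 1.75% of those in the longer Sen lists. The difference was 3.32 ± 2.08 points (exact two-sided permutation p = 0.333). In the 1549 best peaks the shares were 7.62% and 8.13% after sip300/CBP and 3.62% and 4.65% in matched Sen. Without the antibody-shared peaks these were 4.2% and 4.64% after sip300/CBP, and 1.98% and 2.79% in matched Sen. With a −log10 q of at least 5 the groups overlapped, with 20.8% and 38.6% after sip300/CBP and 9.65% and 31.4% in matched Sen (exact two-sided permutation p = 0.667).

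**Figure D5:**
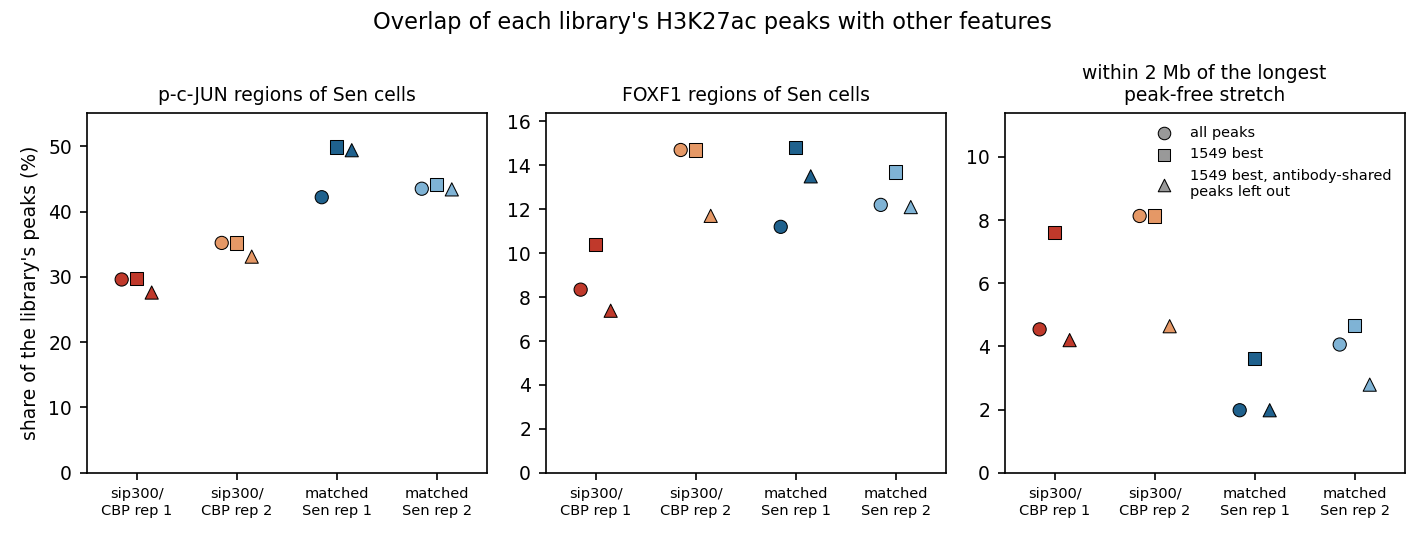
Share of each library's peaks (y axis, percent; scales differ between panels) at p-c-JUN sites of Sen cells, at FOXF1 sites of Sen cells, and no more than 2 Mb from the longest peak-free stretch. Circles are all peaks, squares the 1549 best, triangles the 1549 best without antibody-shared peaks. For p-c-JUN both sip300/CBP libraries lie below both matched Sen libraries (29.6% and 35.2%, against 42.2% and 43.5% over all peaks), and for FOXF1 the groups interleave over all peaks and separate in the triangles.

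In 0.5 Mb windows, the most peaks after sip300/CBP were on chromosome 2 at 92000001 to 92500000, beside a peak-free stretch, with 16 and 17 peaks after sip300/CBP, against 4 and 7 in matched Sen. The same window had the most peaks in matched Sen replicate 2. The longer Sen lists had 2, 2, 7 and 10 there. The window with the most peaks in matched Sen replicate 1 was on chromosome 13 at 37500001 to 38000000, with 2 and 1 peaks after sip300/CBP and 12 and 2 in matched Sen. The longer Sen lists had 52, 38, 26 and 16 peaks there, so it was among the places with many H3K27ac peaks in Sen cells. On chromosome 1 at 8500001 to 9000000 there were 1 and 2 peaks after sip300/CBP and 10 and 6 in matched Sen, with 44, 37, 26 and 12 in the longer lists. A window on chromosome 1 at 145000001 to 145500000 held similar numbers in both groups, 13 and 7 after sip300/CBP and 10 and 5 in matched Sen. These windows were picked for their counts and carry no test.

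Peaks that none of the 4 longer Sen lists held numbered 794 and 241 after sip300/CBP, and 964 and 189 in matched Sen. They were 19% and 15.6% of the sip300/CBP lists, against 11.7% and 9.24% of the matched Sen lists, a difference of 6.79 ± 2.11 points (exact two-sided permutation p = 0.333). They had a median −log10 q of 2.44 and 2.5 after sip300/CBP and 2.22 and 2.22 in matched Sen. The peaks that a longer list did hold had higher medians, 2.86 and 2.81 after sip300/CBP and 2.6 and 2.44 in matched Sen. The shares of these peaks found in other lists were of similar size in both groups: 30.4% and 29.9% of these peaks after sip300/CBP, and 30.4% and 33.3% in matched Sen, were in a Pro list. In none of the H3K27ac lists outside this experiment were 54.3% and 49.8% of them after sip300/CBP, and 53.7% and 43.4% in matched Sen. Near a peak-free stretch lay 7.68% and 19.5% of them after sip300/CBP, against 2.18% and 5.29% in matched Sen.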

How the data were processed

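H3K27ac CUT&RUN peak lists of 4 libraries, 2 a group, were analysed. Per the labels' protocols yeast spike-in DNA was added. The submitters' processing notes name Bowtie2 2.3.4.1, SAMtools 1.9, deepTools 3.1.1, MACS2 3.0.0 and hg19, without their roles. The use of the spike-in and the control for peak calling are not stated in the sources used here. The authors deposited 1 list per library, with none pooled. Each deposited peak has a score, a fold enrichment (a linear ratio), a −log10 p, a −log10 q and a summit position, used here only to describe or rank peaks within a list. Read totals are unknown, and a missing peak is one that did not pass a threshold.

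Chromosomes 1 to 22 and X were used, which leaves out 61 of 16076 peaks. Overlaps of at least 1 bp were counted with Python 3.11.15 and pandas 2.3.3, and an exact permutation test over 6 arrangements, two-sided, compared shares between groups. Differences are sip300/CBP minus matched Sen. Background coverage was solved from fold and p, assuming 1 added to both terms of the fold and a fragment as long as the narrowest peak; this returned the −log10 p of peaks below 60 to within 0.005. Region joining was checked on simulated peaks. Named regions are the 10 gained, 10 lost and 10 held by all 4 with the best ranks, ordered by their poorest −log10 q rank among the libraries holding them. Members, lists and tests were chosen with earlier results of these data known, and the senescence classes, p-c-JUN tests and antibody-shared regions were added after seeing the data. Same-numbered libraries were not treated as pairs. No annotation of the files' build was used, so promoters, nearby genes, fixed gene lists, cell type markers and sequences were not analysed here.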

Additional observations from a re-analysis of the deposited data

How the results depend on the processing

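Of 81 values under alternatives, 70 kept their direction (counts of regions also their size within 1.5 times), 3 reversed and 8 moved. Some of the 70 could not change and say nothing on robustness. The replicate block leaves every difference and count as it was. For region counts, the overlap of 50% was applied after joining, so it had to return 280 gained and 374 lost regions again. The differences in the share of peaks in at least 3 longer Sen lists, near peak-free stretches, at acquired sites, at given-up sites and at p-c-JUN sites kept their direction under every alternative run, but not their size: with a −log10 q of at least 5 the first was -20.8 and the second 9.2 points, and with Sen replicates 3 and 4 the acquired difference was -0.355. The log2 difference in peak number, -0.69, reversed to 0.64 with a −log10 q of at least 5, and ranged from -1.69 to 0.32 when each replicate was left out, turning to 0.03 without sip300/CBP replicate 2 and to 0.32 without matched Sen replicate 1. Gained regions numbered 43 and lost regions 6 with a −log10 q of at least 5, and lost regions 107 at equal list length, with or without antibody-shared peaks; fewer peaks enter these settings. Leaving out each replicate, with presence then resting on 1 list, gave 300 to 3330 gained regions (1167 without sip300/CBP replicate 1, 3330 without sip300/CBP replicate 2) and 400 to 7341 lost regions (1727 without matched Sen replicate 1, 7341 without matched Sen replicate 2). The same exercise gave ranges of -9.49 to -2.62 points for presence in at least 3 longer lists, 1.52 to 5.12 for peaks near peak-free stretches, -3.3 to -2.76 for acquired sites, 1.48 to 2.06 for given-up sites and -13.2 to -7.62 for p-c-JUN sites. Deviations of same-numbered libraries from their group means correlated at 0.0535 over 105750 regions of the Sen lists. This value rests on presence calls alone, so it does not show whether such libraries share more than a number. With the replicate block, pairing libraries by number, the differences kept their values (peak number -0.69, presence -6.06). Their SE fell from 1.23 to 0.29 for peak number and from 4.58 to 0.411 points for presence. The exact sign-flip test gave p = 0.5, the smallest that 2 pairs allow, so no call could be made. The promoter share and its alternatives were not run. With 2 libraries a group no difference can pass a threshold of 0.05 in the exact permutation test, and its p of 0.333 says only that the groups did not overlap. Read totals are unknown, so a weak site and an absent one cannot be told apart. Why the 4 lists are short was not tested.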

Other observations

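Peaks on chromosome 19 made up 4.4% and 3.49% of the sip300/CBP lists, against 2.39% and 3.03% of the matched Sen lists, and on chromosome 4 they made up 4.73% and 5.29% of the sip300/CBP lists, against 5.6% and 6.16% of the matched Sen lists. In neither case did the groups overlap over all peaks, and these 2 chromosomes were picked after their values were seen. Among the 1549 best peaks the chromosome 4 shares overlapped, at 4.39% and 5.29% after sip300/CBP and 4.71% and 6.2% in matched Sen. With a −log10 q of at least 5 the chromosome 19 shares overlapped, at 3.83% and 4.46% after sip300/CBP and 4.09% and 4.9% in matched Sen. Regions that a single library of the 4 held differed between groups as the gained and lost ones did. Acquired sites were 1.32% and 1.83% of the regions held by 1 sip300/CBP library alone, against 5.1% and 4.94% of those held by 1 matched Sen library alone. Given-up sites were 5.07% and 4.81% of the sip300/CBP ones, against 2.27% and 2.54% of the matched Sen ones. p-c-JUN sites were 26.1% and 33.9% of the sip300/CBP ones, against 41.5% and 40% of the matched Sen ones. These single-library regions are distinct from the regions counted as gained or lost, but come from the same 4 libraries.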
